A study of Brassica napus with 6 samples.

Results

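miR164 was represented by 2 of the 69 known miRNAs counted in rapeseed (Brassica napus) small RNA, ath-miR164a and ath-miR164c-5p, and by 11 of 162 entries in the degradome table of the long-silique line and 25 of 577 in that of the short-silique line. Members were taken by name, as every counted miRNA and every degradome entry whose family is numbered miR164. The long-silique line (LS) and the short-silique line (SS) were backcross progeny of a cross of 8008 with 4942, grown in the field, and no other treatment or allele is named for either. Pistils and siliques, the seed pods of rapeseed, were pooled from about 12 plants per stage over 0 to 7 days after pollination, so a value is an average over stages and over all tissues of the young fruit. Small RNA was sequenced in 2 libraries per line and the degradome, a library of the 5′ ends of cut mRNAs, in 1 library per line. As bulk tissue was used, fewer cells of a type and less RNA per cell cannot be told apart.

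miR164 is a plant miRNA that pairs with mRNAs of a group of NAC transcription factors and directs their cleavage. In Arabidopsis these targets include the CUP-SHAPED COTYLEDON genes, which set the boundaries between organs and act in the margin tissue of the pistil from which ovules arise, NAC1, which acts in lateral root formation, and ORE1, which promotes leaf ageing. A plant miRNA usually cuts its target opposite its bases 10 and 11.

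The degradome tables carry the mature sequences, which are shown because the 2 members are near copies. The capitals mark the seed, bases 2 to 8, and the last base, and T stands for U.
bra-miR164a: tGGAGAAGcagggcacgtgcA
bra-miR164c-5p: tGGAGAAGcagggcacgtgcG
The sequences, each 21 nt long, differed by 1 substitution, A21G, counted from 1 at the 5′ end and written from bra-miR164a to bra-miR164c-5p. They had the same seed, and of the 145 miRNA names in both degradome tables only these 2 had it. The count tables give names with the prefix ath and no sequences, so the counted and the degradome members were matched by family and letter. Reads of such near copies can be split between the names in a way the tables do not resolve, and the sum of both is therefore given too.

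The library totals ranged from 6046506 to 6739286 reads, and known miRNAs held 4.82% of them in each LS library and 6.50% to 6.51% in SS. Between LS libraries 1 and 2 the counts of the 48 known miRNAs with 20 or more reads in both together differed no more than counting predicts (chi-square 0.958 for each degree of freedom, p = 0.556), and these libraries were counted as 1 sample for levels. The SS libraries differed from each other by more (chi-square 1.63 for each degree of freedom over 51 miRNAs, p = 0.0028). ath-miR164a did not differ detectably between the SS libraries (exact binomial p = 0.662), nor did ath-miR164c-5p (exact binomial p = 0.286). The labels speak of replicated experiments without saying that the libraries came from separate plants, so p-values measure only the spread between libraries, which may be technical.

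ath-miR164a, by far the more abundant member, was about 2.2 times as abundant in short siliques when scaled to the library totals. Its count was 2938 in LS library 1, 3104 in LS library 2, 6136 in SS library 1 and 6447 in SS library 2. As reads per 1000000 library reads (RPM) these were 458 and 461 in LS and 1015 and 1007 in SS. As a share of the known miRNA reads these were 0.95% and 0.956% in LS and 1.56% and 1.55% in SS. The libraries of a line were within a few RPM of each other, and both SS libraries stood far above both LS libraries. The mean was 459 RPM in LS (95% Poisson interval 448 to 471) and 1011 ± 5.61 RPM in SS (SD, n = 2), a ratio of 2.20 (exact counting interval 2.13 to 2.27). In order of count ath-miR164a was at place 8, 7, 8 and 8 of the 69 known miRNAs in LS 1, LS 2, SS 1 and SS 2, so its place among miRNAs was nearly the same in both lines.

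ath-miR164c-5p, the member with G as its last base if its sequence is that of its bra namesake, was a minor form in both lines. It had 219 reads in LS library 1, 203 in LS library 2, 275 in SS library 1 and 318 in SS library 2, which is 34.2 and 30.1 RPM against 45.5 and 49.7 RPM. Both SS values lay above both LS values, with ratios between an SS and an LS library from 1.33 to 1.65. The mean was 32.1 RPM in LS (Poisson interval 29.1 to 35.3) and 47.6 ± 2.96 RPM in SS (SD, n = 2), a ratio of 1.48 (exact counting interval 1.31 to 1.69). Lines that did not overlap in RPM were the rule and not a feature of miR164, since 80.8% of the 52 tested miRNAs had their lowest SS value above their highest LS value. As a share of the known miRNA reads the lines did overlap. ath-miR164c-5p made up 0.0708% and 0.0625% of these reads in LS libraries 1 and 2, and 0.0699% and 0.0765% in SS libraries 1 and 2.

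**Figure D1:**
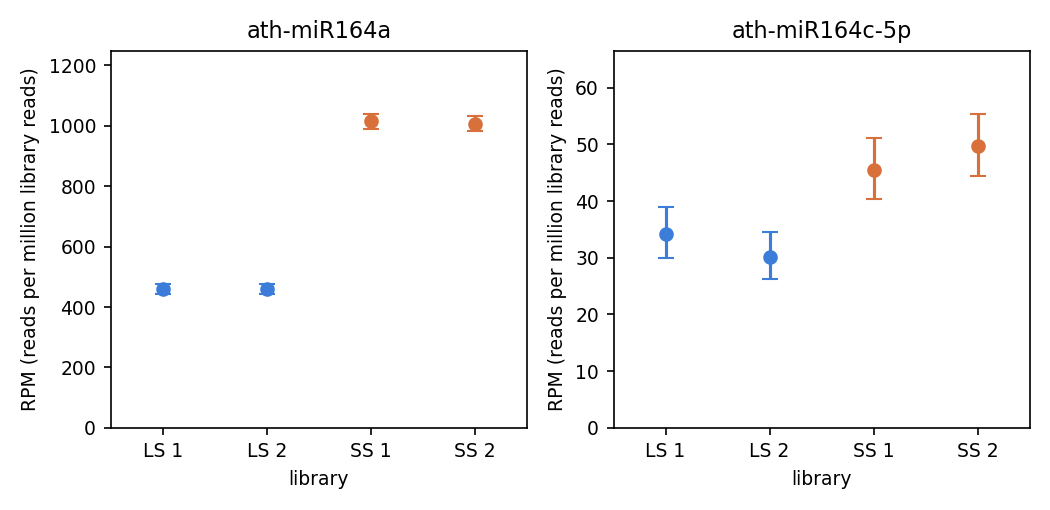
RPM (vertical axes, from 0) of ath-miR164a and ath-miR164c-5p in each small RNA library, LS in blue and SS in orange, with 95% Wilson intervals that cover counting error only. ath-miR164a is near 459 RPM in LS and 1011 RPM in SS, and ath-miR164c-5p lies between 30.1 and 34.2 RPM in LS and between 45.5 and 49.7 RPM in SS.

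The members were tested with edgeR's quasi-likelihood test, fitted on the 52 known miRNAs that reached 10 counts in 2 libraries or more, with TMM scaling, which sets the libraries level on the bulk of the miRNAs. Both members passed at a Benjamini-Hochberg adjusted p of 0.05 as higher in SS, where 34.6% of the tested miRNAs were called higher and 51.9% were called in either direction. ath-miR164a rose by 0.84 ± 0.04 on the log2 scale (SE, edgeR adjusted p = 4.41e-42), the place 8 from the highest of 52. ath-miR164c-5p was higher by 0.27 ± 0.08 (edgeR adjusted p = 0.00671), at place 21. With the LS libraries counted as 1 sample, which follows from their likeness, ath-miR164a still passed at 0.83 ± 0.05 (edgeR adjusted p = 1.55e-23), and ath-miR164c-5p did not at 0.26 ± 0.12 (edgeR adjusted p = 0.0615), against 30.8% of all miRNAs called higher in that fit. DESeq2 likewise called ath-miR164a (0.74 ± 0.05, DESeq2 adjusted p = 4.19e-45) and not ath-miR164c-5p (0.17 ± 0.16, DESeq2 adjusted p = 0.443), with 19.2% of miRNAs called higher. The call of ath-miR164c-5p also ended without LS library 2 (0.19, edgeR adjusted p = 0.37) and without SS library 2 (0.20, edgeR adjusted p = 0.127).

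The size of the rise depended on the scale. A scale factor shifts all miRNAs of a library alike, so their distances to each other were bound to hardly change with it. With the authors' library totals the log2 fold change was 1.14 for ath-miR164a and 0.57 for ath-miR164c-5p, and the median of all 52 moved from 0.12 to 0.41. With that scaling 63.5% of the miRNAs were called higher, both members among them. Measured from the median of all tested miRNAs, ath-miR164a stood 0.72 higher with TMM and also with the authors' totals, and between 0.71 and 0.79 over all 13 settings. ath-miR164c-5p stood 0.16 above the median with either scale, and between 0.08 and 0.26 over the settings. So ath-miR164a stood apart from the middle of the tested miRNAs in every setting, and ath-miR164c-5p was near it. For settings that differ only in scale this likeness was fixed in advance.

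The sum of both members could only follow ath-miR164a, since ath-miR164c-5p held just 4.29% to 6.94% of their reads in a library. This sum does not depend on how reads were split between the members, but it is no separate check of ath-miR164a. It was 492 RPM in LS (Poisson interval 480 to 504) and 1058 ± 2.65 RPM in SS (SD, n = 2), and it rose by 0.73 ± 0.03 among 32 family sums (edgeR adjusted p = 6.28e-31), where 31.2% of families were called higher. This call held in each of the 12 other settings, with log2 fold changes from 0.67 to 1.11.

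**Figure D2:**
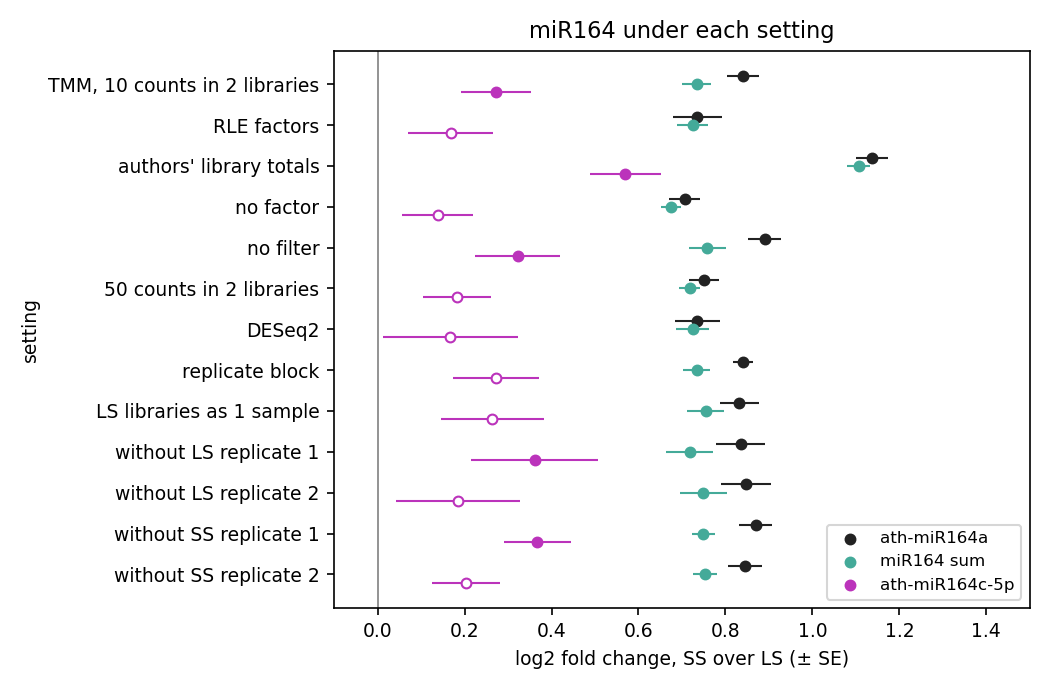
Log2 fold change of SS over LS (horizontal axis, with SE) of ath-miR164a in black, the miR164 sum in green and ath-miR164c-5p in purple, under each setting on the vertical axis. Filled points passed the adjusted p of 0.05 and open points did not. ath-miR164a and the sum are filled in every setting shown, from 0.67 upwards, and ath-miR164c-5p is open in 8 of the 13.

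In the authors' deposited tables, which compare 1 library with 1 library, the log2 fold change of ath-miR164a was 1.15 in the pair numbered 1 (p = 1.39e-294) and 1.13 in the pair numbered 2 (p = 2.02e-300), and both were marked as changed. In the authors' deposited tables, from the same test on 2 libraries each, ath-miR164c-5p was at 0.41 (p = 0.00154) and 0.72 (p = 1.74e-08) and was marked in neither.

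The balance between the members can be read within a library, where no scaling enters. ath-miR164c-5p made up 6.94% of the miR164 reads in LS library 1 (exact 95% interval 6.08% to 7.88%) and 6.14% in LS library 2 (5.34% to 7.01%). In SS it made up 4.29% in library 1 (3.81% to 4.81%) and 4.70% in library 2 (4.21% to 5.23%). Both SS shares were below both LS shares, and no LS interval overlapped an SS interval.

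There were thus 13.4 and 15.3 reads of ath-miR164a to each read of ath-miR164c-5p in LS, and 22.3 and 20.3 in SS. With the reads of the LS libraries summed, the share was 6.53% in LS (exact interval 5.94% to 7.16%), against 4.50% ± 0.291 in SS (SD, n = 2). The means over libraries differed by -2.04 percentage points. With each library counted on its own, the exact permutation test over the 4 libraries gave a two-sided p = 0.333, which is the smallest that 2 against 2 libraries allow. From the summed counts the ratio of ath-miR164a to ath-miR164c-5p was 1.48 times higher in SS (exact conditional interval 1.30 to 1.69), an interval that covers counting error only. On the log2 scale this ratio differed by 0.41 to 0.73 in the 4 possible pairs of an SS and an LS library. Between the libraries of 1 line the ratio differed by a factor of 0.877 in LS (interval 0.716 to 1.07) and 1.10 in SS (0.93 to 1.30), and both intervals include equality.

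**Figure D3:**
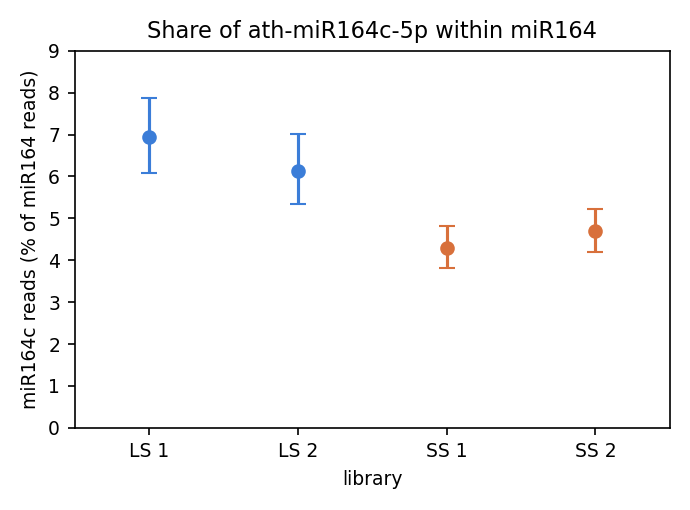
Share of ath-miR164c-5p in the reads of both miR164 members (vertical axis, percent, from 0) in each library, LS in blue and SS in orange, with exact 95% binomial intervals. The LS libraries are at 6.94% and 6.14% and the SS libraries at 4.29% and 4.70%.

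Among the 10 families with 2 or more tested members, miR164 was at place 4 from the most even by the gap between its members. The log2 fold changes of its members lay 0.57 apart, against 0.06 in miR158, 0.21 in miR167 and 0.23 in miR171, and 2.69 in miR160, the widest. In several families with a wider gap the least abundant tested member had few reads over the 4 libraries, such as 35 for miR169 and 37 for miR2111. The minor form of miR164 had 1015. In miR158 and miR160 the gap was between a name ending in 3p and a name ending in 5p. The gap within miR164 thus lay inside the range of these families.

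By the distance of their centred log2 CPM (scaled counts per 1000000) over the 4 libraries, the miRNAs closest to ath-miR164a were ghr-miR827a (0.10), ath-miR156a-5p (0.17) and ath-miR157a-5p (0.27), all higher in SS in RPM. ath-miR156a-5p, which acts on SPL genes, was at 144 and 140 RPM in LS and at 282 and 275 RPM in SS. Closest to ath-miR164c-5p were ath-miR390a-5p (0.12), bna-miR167d (0.16) and ath-miR162a-3p (0.17). The members of miR164 were not near each other by this measure, as ath-miR164c-5p was at place 13 from ath-miR164a (0.59). The likeness rests on 4 libraries in 2 lines, which all miRNAs share, and is a description with no test.

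Other miRNAs of processes in which miR164 takes part are given beside it by list, with no test of a list or of a difference from miR164. Of the listed families of organ boundary, polarity and growth (miR165, miR166, miR319, miR394 and miR396), 4 of 5 had rows, and 2 of their 4 miRNAs had enough counts for the test. Both were called lower with TMM, where 17.3% of the 52 tested miRNAs were, with a median log2 fold change of -0.07 against 0.12 over all 52. These calls depended on the setting, since both miRNAs turned to higher with the authors' totals and neither passed without LS library 2 or without SS library 1. ath-miR166a-3p, which acts on HD-ZIP genes of organ polarity, was at 7637 and 7536 RPM in LS and 9183 and 9018 RPM in SS, so its log2 fold change was -0.03 with TMM (edgeR adjusted p = 0.000958) and 0.26 with the authors' totals. Leaving out any 1 of the 4 libraries ended its call (edgeR adjusted p from 0.0585 to 0.373). ath-miR165a-3p, which acts on the same genes, was at -0.11 (edgeR adjusted p = 0.00242) and 0.18 on these scales, and did not pass without LS library 2 (edgeR adjusted p = 0.237) or without SS library 1 (edgeR adjusted p = 0.0962). ath-miR319a, whose targets are TCP genes of leaf and petal growth, had counts of 6, 6, 0 and 0 in LS 1, LS 2, SS 1 and SS 2. ath-miR394a, whose target is an F-box gene of the shoot meristem, had counts of 8, 10, 1 and 1. Both were below the count minimum of the test. In the fit with no minimum both were called lower, ath-miR319a with an edgeR adjusted p = 0.000169 and ath-miR394a with an edgeR adjusted p = 0.000475, where 11.6% of the 69 known miRNAs were called lower.

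Of the auxin families (miR160, miR167, miR390 and miR393), 8 of 10 miRNAs were tested, and 4 were higher and 1 lower with TMM, with a median log2 fold change of 0.11. Over all 52 tested miRNAs 34.6% were called higher and 17.3% lower, with a median of 0.12. ath-miR390a-5p, the trigger of the tasiRNAs that act on auxin response factor mRNAs, rose by 0.33 ± 0.04 (edgeR adjusted p = 5.89e-15). Reads of ath-miR160a-5p, another regulator of auxin response factors, fell by 2.78 ± 0.27 (edgeR adjusted p = 7.1e-17). Of miR167, also a regulator of auxin response factors, bna-miR167d rose by 0.32, ath-miR167a-5p by 0.15 and ptc-miR167f-5p by 0.11. The call of bna-miR167d ended with DESeq2 (0.21, DESeq2 adjusted p = 0.0555). ath-miR167a-5p did not pass with RLE factors, no factor or DESeq2 (edgeR or DESeq2 adjusted p from 0.0771 to 0.618). ptc-miR167f-5p did not pass with these, with 50 counts, with the replicate block, with the LS libraries as 1 sample or without LS library 2 (edgeR or DESeq2 adjusted p from 0.0615 to 0.973). ath-miR393b-3p (0.12) and ath-miR160a-3p (-0.09) did not pass with TMM. With the authors' totals both passed as higher (edgeR adjusted p = 0.0131 and 0.0022). ath-miR160a-3p passed as lower with RLE factors, no factor and 50 counts (edgeR adjusted p from 0.00121 to 0.032).

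The degradome tables name mRNAs with cut ends at miR164 sites. They list 36 miR164 entries on 14 target mRNAs, each target with 1 position, and the site letters fall into 4 classes when the 15 bases at the 3′ end of the site are compared. One site of each class is shown 5′ to 3′, with capitals for bases that do not form a Watson-Crick pair with the miRNA named.
class 1, with bra-miR164a: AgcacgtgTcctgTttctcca
class 2, with bra-miR164c-5p: cTcacgtgAcctgcttctccG
class 3, with bra-miR164a: AgcaAgtgccctgcttctcca
class 4, with bra-miR164c-5p: cgcGctCcTctgcttctTTa
The identifiers of these mRNAs were looked up in a RefSeq gene table of the Da-Ae assembly and 0 of 14 were found, so they are given with no gene name or genome coordinate, and whether they are NAC genes was not tested. A letter A or C in an identifier names the subgenome, and positions are those in the mRNA as the tables give them.

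Class 1 was the most frequent, with 5 targets, BnaA02g09970D and BnaC02g13890D (both cut at position 816), BnaA03g33770D and BnaC03g38960D (both at 696) and BnaC01g36350D (at 705). Its sites formed wobble pairs with miRNA bases 8 and 13 and no pair with base 21. Class 2 had 4 targets, BnaA04g09470D, BnaA07g14730D, BnaC04g31690D and BnaC06g12550D, all at position 702, with a wobble pair at base 1 and none at bases 13 and 20. Class 3 had 4 targets, BnaA03g32550D and BnaC03g73730D at position 672, BnaA08g00130D at 720 and BnaC03g70990D at 732, where base 17 was unpaired in every entry. Class 4 had 1 target, BnaC06g17890D at position 220, with 4 wobble pairs, 1 mismatch and 1 gap.

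Bases 10 and 11 were paired in all 36 entries, whereas the whole seed was paired in 21, since base 8 wobbles in class 1 and bases 2 and 3 wobble in class 4. The base that separates the members, base 21, was unpaired for both members in class 1. In class 2 the deposited alignments pair base 21 of both members, for bra-miR164a by skipping base 20. In class 3 base 21 was unpaired except in the bra-miR164c-5p entries of BnaA03g32550D and BnaC03g73730D, where it was paired by skipping 1 mRNA base. Alignment scores, which are lower for better pairing, were 2 in classes 1 and 3, 2.5 in class 2 and 4 in class 4. Where both members were listed on a target of a table, which was the case 16 times, they had the same score and the same category each time, so these tables do not separate the sites of miR164a from those of miR164c.

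**Figure D4:**
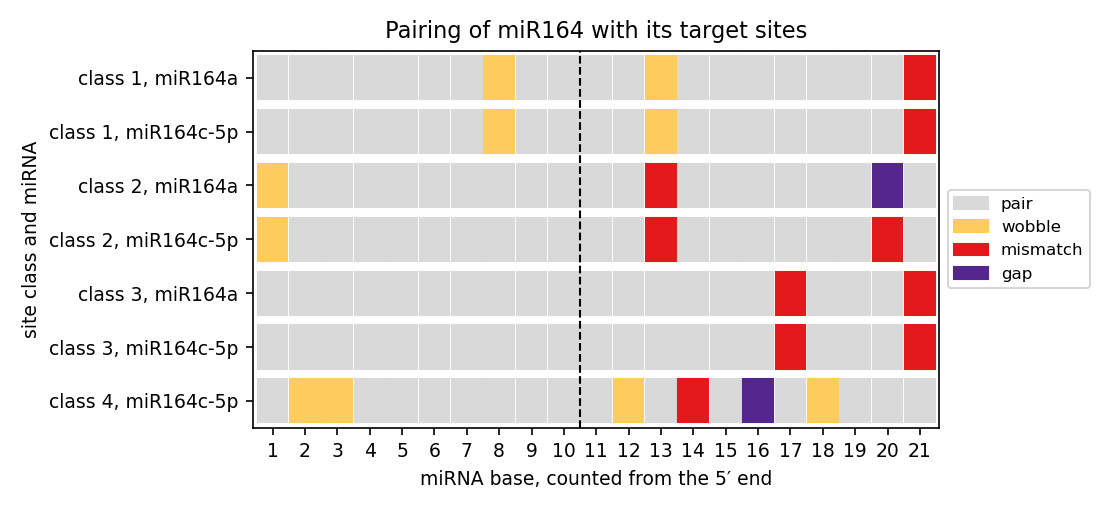
State of each miRNA base (horizontal axis, counted from the 5′ end) against the target site in the 4 site classes, as deposited, for bra-miR164a and bra-miR164c-5p. Grey is a Watson-Crick pair, yellow a wobble pair, red a mismatch and purple a gap, and the dashed line lies between bases 10 and 11, which are paired in every row. For bra-miR164c-5p in class 3 the alignment on BnaA08g00130D and BnaC03g70990D is drawn.

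Most targets matched a target on the other subgenome by site class and position. Rapeseed is an allotetraploid whose A genome comes from Brassica rapa and whose C genome comes from Brassica oleracea. In the table of SS, 6 targets were on A and 8 on C, so 57.1% were on C, against 53.4% of the 238 targets of the other known families. Of the 6 A targets, 5 had a C target with the same site class and the same position, and of the 8 C targets likewise 5. These were not all unique pairs. In class 2, BnaA04g09470D and BnaA07g14730D each matched both BnaC04g31690D and BnaC06g12550D, all at position 702. Such matches were not counted for other families. The A target without one was BnaA08g00130D, and the C targets without one were BnaC01g36350D, BnaC03g70990D and BnaC06g17890D. By number of targets miR164 was at place 3 of 20 known families in the SS table, behind miR156 with 88 and miR172 with 23.

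The LS table ends inside an entry while its targets run in order of identifier, before the C subgenome, so the lines can be compared on the A subgenome up to that end. Over this range LS and SS had the same 6 targets, BnaA02g09970D, BnaA03g32550D, BnaA03g33770D, BnaA04g09470D, BnaA07g14730D and BnaA08g00130D, at the same positions and with 11 entries each. The other known families had 51 targets in LS and 77 in SS over this range. How many of those were shared between the lines was not counted, so whether full agreement is usual was not tested. The 8 C targets of SS were not analysed in LS. All miR164 entries had a deposited p-value of 0.002 or below. The highest deposited p-value of the other known families was 0.032 in LS and 0.048 in SS, over many more entries. The share of those entries at or below 0.002 was not counted.

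The category of an entry runs from 0 to 4. In the scheme commonly used for such data, category 0 is given when the site is the most abundant cut position of the mRNA and category 4 when it has the least support, but the scheme is not given in the sources used here and the tables hold no read numbers. Category 0 was given to 10 of 11 miR164 entries in LS and to 21 of 25 in SS, which is 90.9% and 84%, against 96.4% and 68.9% for the other known families. Within the range of the LS table the SS share was 72.7%, against 72.6% for the other families, so miR164 was not apart from them there. On the C subgenome it was 92.9%, or 13 of 14 entries.

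All entries of classes 1 and 2 were of category 0 in both lines, and the exceptions were in class 3. BnaA08g00130D was of category 0 with both members in LS and of category 1 with both in SS. BnaA03g32550D was listed with bra-miR164a and category 1 in LS, and with bra-miR164c-5p and category 4 in SS. BnaC03g73730D, with the same site class and position on C, was of category 4 in SS, also with bra-miR164c-5p alone, while BnaC03g70990D was of category 0. Of the 10 miR164 miRNA and target pairs found in both lines, 8 had the same category, against 63 of 69 pairs of other known families. These pairs count a site once for each member listed on it, and the pairs that differed were both on BnaA08g00130D. BnaA03g32550D is not among the pairs, since it was listed with a different member in each line. Each line had 1 degradome library, so these differences have no replicate check, and the abundance of miR164 and its categories could not be related across lines.

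**Figure D5:**
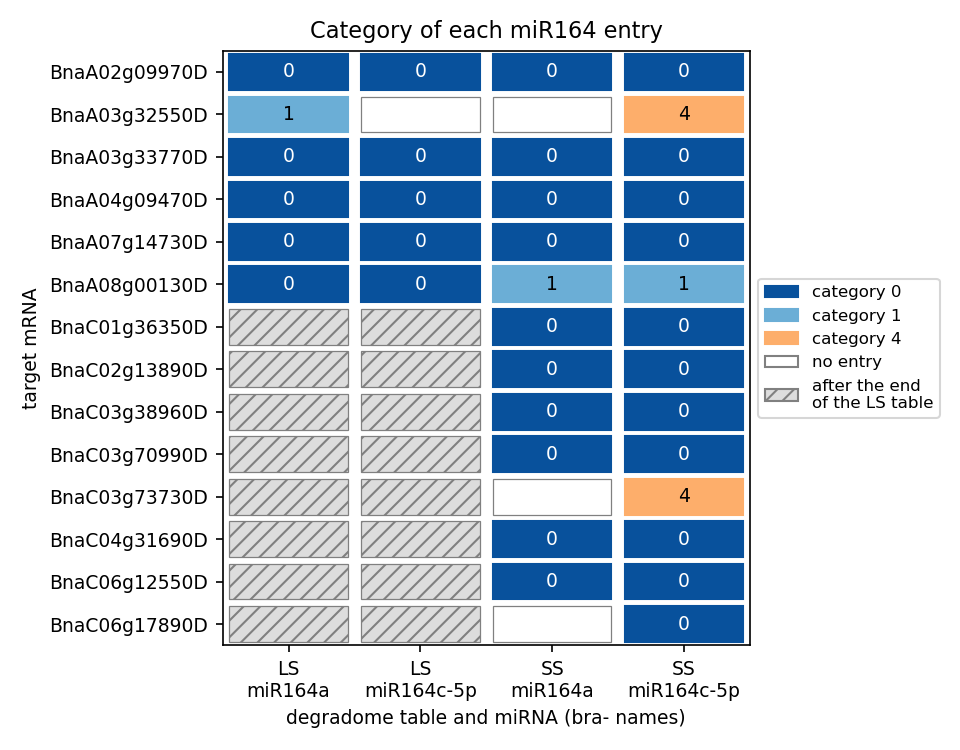
Category of each miR164 entry by target (vertical axis) and by table and miRNA (horizontal axis), with the number of the category in the cell, white for no entry and hatched grey for targets after the end of the LS table. Of the 36 entries 31 are of category 0, and the others are on BnaA03g32550D, BnaA08g00130D and BnaC03g73730D.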

How the data were processed

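The deposited count tables give, per the file headers, the reads of each known miRNA in each small RNA library and the library total, as whole counts that were not normalized. The authors' RPM values in them were the count divided by that total, times 1000000, with 0.01 for a count of 0. Their log2 fold changes (SS over LS) and p-values compare 1 library with 1 library, per the file headers. For the aligner, miRNA database, genome build and degradome program, no source used here gives a name. Small RNAs of 18 to 30 nt were selected, per the labels' protocols.

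From the counts, edgeR 4.0.16 in R 4.3.3 (quasi-likelihood, TMM, two-sided) was fitted on 52 of 69 known miRNAs, and on sums of 32 families, that reached 10 counts in 2 libraries or more. p-values were Benjamini-Hochberg adjusted (threshold 0.05). The standard error was the log2 fold change divided by the root of the F statistic. Intervals are 95% and cover counting error only. Alternatives were RLE factors, the authors' totals, no factor, no filter, 50 counts, DESeq2 1.42.0 (local fit), a replicate block, LS as 1 sample and each library left out. When 1 library of a line was left, it was assumed to vary like the other line. The 3 nearest miRNAs were named by Euclidean distance (TMM log2 CPM, prior count 1). Of the listed partner families, miRNAs past the test and the most abundant of each family were named. Every miR164 degradome target was named. Pairing was read from the deposited alignments, and the count tables of predicted miRNAs were not used. The members and lists were chosen with earlier results of these data known.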

Additional observations from a re-analysis of the deposited data

How the results depend on the processing

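ath-miR164a and the miR164 sum stayed higher in SS and past the test in all 12 alternatives, with log2 fold changes of 0.71 to 1.14 and 0.67 to 1.11. ath-miR164c-5p stayed above 0 but no longer passed with RLE factors (0.17), no factor (0.14), 50 counts in 2 libraries (0.18), DESeq2 (0.17) and the LS libraries as 1 sample (0.26), and the cause was not tested. Over the fits that left out a library it ranged from 0.19 to 0.37, ath-miR164a from 0.83 to 0.87, the sum from 0.72 to 0.75 and the difference in the miR164c share from -2.44 to -1.64 percentage points. The number of known miRNAs past the test was 27, 36 with the authors' totals, 17 with DESeq2 and 20 to 24 without a library. For the partner families, alternatives were added after the data were seen, and the number of miRNAs past was 7, 9 with the authors' totals, 4 with DESeq2 and 4 to 6 without a library (4 without LS library 2). With the authors' totals ath-miR165a-3p (0.18), ath-miR166a-3p (0.26) and ath-miR160a-3p (0.21) turned to higher, ath-miR166a-3p also without the filter (0.014), and with no factor ptc-miR167f-5p (-0.023) and ath-miR393b-3p (-0.017) turned to lower. Without the filter ath-miR165a-3p no longer passed (edgeR adjusted p = 0.148). The SS table held 14 miR164 targets, of which 6 lay in the range that the LS table covers. With the replicate number as a block, ath-miR164c-5p no longer passed (0.27, edgeR adjusted p = 0.118) and 23 known miRNAs did. The labels do not say that a number marks a shared experiment, and the differences between libraries 1 and 2 of the lines correlated at -0.26 over 52 miRNAs, so the pairing was not used. For ath-miR164c-5p, with 203 to 318 reads a library, depth limits the precision.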

Other observations

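Predicted miRNAs with sequences close to miR164 were listed on miR164 targets in the degradome. Among the other miRNA names of the degradome tables with 21 bases, 2 differed from bra-miR164a at 6 or fewer bases, and both are predicted miRNAs. They are shown with capitals at the bases that differ from bra-miR164a and at base 21.
novel_mir_65: tggagTagTagAAcacgtgcA
novel_mir_80: tggagTagTagAAcacgtgcG
novel_mir_65 carried A6T, C9T, G12A and G13A relative to bra-miR164a, counted from 1 at the 5′ end, and novel_mir_80 carried these and A21G, the substitution that also separates bra-miR164c-5p from bra-miR164a. In the SS table each was listed on all 5 class 1 targets, at the same positions as miR164, with a score of 4 and a deposited p-value of 0.026, against a score of 2 for miR164 there. Neither was listed on a miR164 target of another site class, novel_mir_80 had 6 targets in all and novel_mir_65 had 5, and neither had an entry in the LS table. Which of these miRNAs directed the cuts cannot be told apart from the tables.

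BnaC06g17890D, the 1 target of class 4, was also listed at the same position 220 with bra-miR156g-5p and ptc-miR156k, each with a score of 4.5 against 4 for bra-miR164c-5p. It was the 1 miR164 target listed with another known family.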
